A study of Mus musculus with 8 samples.

Results

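The mitochondrial ribosomal protein genes are named Mrps for the small and Mrpl for the large subunit of the mitoribosome, and they were taken by symbol, as every gene whose name starts with Mrps or Mrpl followed by a digit in either of 2 expression tables from mouse embryonic stem cells (mESCs). This gave 77 genes, 29 Mrps and 48 Mrpl, of 14709 genes in all. All 77 were analysed in the sorted cells and 76 in the overexpressing cells, where Mrpl33 was not analysed. Every one had a mean of at least 1 FPKM (fragments scaled by transcript length and by the mapped total of the library) in each table analysed, so no gene was lost to the filter on low values, and none was at the lowest value of the tables, 0.1 FPKM.

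The tables cover 8 samples of 4 conditions, with 2 samples per condition, and address how cells with the transcription factor KLF3 differ from cells without it. The mESCs were of C57BL/6(F) x 129/sv(M) background and grew in serum with leukaemia inhibitory factor. In the first experiment, a reporter line was sorted into a KLF3-GFP-positive and a KLF3-GFP-negative fraction (GFP-positive and GFP-negative cells), 500 cells per sample, and these were sequenced after Smart-seq2, which amplifies full-length cDNA from few cells. All sorted cells carried the same PiggyBac construct, in which the CAGGS promoter drives Emerald GFP joined to an N-terminal part of KLF3 that lacks the DNA-binding domain, and EF1α drives DsRed, and the line came from picked colonies. The reporter therefore marks cells that hold the fusion protein and does not itself supply a complete KLF3. In the second experiment, KLF3-OE cells carried codon-optimised Klf3 and GFP-OE cells carried GFP at the Col1a1 FRT site of R26 cells, which express the M2rtTA activator, and both were induced with doxycycline for 72 hours before poly(A) RNA-seq. The overexpressing lines were picked clones, and the sources used here do not give their number, so KLF3 and clone cannot be told apart.

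The mitoribosome is the ribosome inside mitochondria, and it translates the few mRNAs that mitochondrial DNA encodes, all of them for subunits of the respiratory chain and ATP synthase. Its rRNAs come from mitochondrial DNA, whereas all of its proteins are encoded in the nucleus, made in the cytosol and imported. Some of these proteins have bacterial homologues, and others are found in mitoribosomes and have no bacterial counterpart. The small subunit reads the mRNA and pairs codon with anticodon, and the large subunit forms the peptide bond and sits at the inner membrane, into which most products are inserted. The names do not follow location everywhere. Mrps18a and Mrps30 encode proteins of the large subunit, and Mrps36 encodes a component of the alpha-ketoglutarate dehydrogenase complex.

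Each table gives 1 FPKM value per gene and condition, the authors' mean of 2 samples, so the spread between replicates is unknown, no difference was tested, and a value past a limit is a description of these averages. The read depth is unknown too. Differences are of log2(FPKM + 1), where 1 corresponds to 2-fold, and a gene is counted as above 2-fold or below 0.5-fold on this scale. Levels can be set beside each other within a table, because FPKM is per length, but not between the tables, which came from different library protocols. In bulk averages of this kind, fewer cells of a type and less RNA per cell cannot be told apart. The conditions also differed in cell-type markers, and the part of these in the results on Mrps and Mrpl genes was not tested. The summed FPKM of 12 pluripotency markers went from 847 in GFP-negative to 330 in GFP-positive cells and from 2715 in GFP-OE to 2053 in KLF3-OE cells. In sorted cells 11 of the 12 were lower and Klf5 was higher (20.7 to 34.9 FPKM). In KLF3-OE cells 10 were lower, and Pou5f1 (883 to 990 FPKM) and Klf2 (83.9 to 102 FPKM) were higher. All 10 primitive endoderm markers were above 2-fold in both experiments (sums 9.11 to 560 FPKM and 35.0 to 199.7 FPKM). Of 10 trophoblast markers 9 were listed, with sums from 37.8 to 394 FPKM and from 98.2 to 549 FPKM. These sums were carried by the keratins Krt8 and Krt18, which are not particular to trophoblast, and the other 7 markers went from 6.82 to 4.21 FPKM and from 35.3 to 32.8 FPKM. Of 10 fibroblast and feeder markers 3 were listed in sorted and 6 in overexpressing cells, with sums of at most 19.4 FPKM. Klf3 was listed at 107 and 122 FPKM in GFP-negative and GFP-positive cells, where reads from the reporter could be counted with those of the gene itself, and at 58.7 and 47.8 FPKM in GFP-OE and KLF3-OE cells. These values do not check the labels, because the reporter selects on protein and the transgene is codon-optimised. The Y-linked Eif2s3y was at 30.9 FPKM in GFP-OE and 1.67 FPKM in KLF3-OE cells, and Ddx3y and Uty were at the lowest value in KLF3-OE cells, so these lines also differed in the Y chromosome transcripts detected.

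In sorted cells, mitoribosomal protein mRNAs differed little between GFP-positive and GFP-negative cells, and more of them were lower than higher. The median difference was −0.03 over the 29 Mrps genes (range −1.24 to 0.70) and −0.14 over the 48 Mrpl genes (range −0.78 to 0.93), beside 0.03 over the 9212 genes whose mean reached 1 FPKM. Of the 77 genes, 0 were above 2-fold, where 13.8% of all genes were, and 1 was below 0.5-fold, where 8.32% of all genes were. The median level in GFP-negative cells was 145 FPKM over the members and 2.77 FPKM over all listed genes. The part of level in these shares was not tested. Positive differences were seen in 11 of 29 Mrps and 19 of 48 Mrpl genes, 30 of 77 in all (39.0%), beside 51.7% of all genes. After quantile normalization 21 of the 77 were positive (45.0% of all genes), and 16 with columns brought to the same sum without the cytosolic ribosomal protein genes (again 45.0% of all genes). The Mrps median rested partly on genes that overlap another protein-coding gene or have a pseudogene copy, since the 11 Mrps genes with neither had a median of −0.49, 3 of them positive, while the 22 such Mrpl genes had −0.14. The summed level was nearly the same in both conditions, at 6572 FPKM in GFP-negative and 6719 FPKM in GFP-positive cells for Mrps genes and at 10115 and 9491 FPKM for Mrpl genes. The genes kept their order, with a Pearson r of 0.97 between the log2 levels of both conditions across the 77 genes, which are not independent replicates.

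The gene past the limit was Mrps31 (chr8:22411340-22429665, plus strand, mm10), a small-subunit protein particular to mitochondria. It was at 71.3 FPKM in GFP-negative and 29.5 FPKM in GFP-positive cells, a difference of −1.24. The next lowest Mrps genes were Mrps9, at 95.1 and 52.9 FPKM (−0.83), and Mrps27, a pentatricopeptide repeat protein, at 26.5 and 15.2 FPKM (−0.76). At the other end stood Mrps18a, at 167 and 272 FPKM (0.70), Mrps34, at 91.2 and 132 FPKM (0.53), and Mrps21, at 585 and 804 FPKM (0.46). None of these 3 reached 2-fold. Mrps18a overlaps Rsph9, Mrps34 overlaps Mapk8ip3 and Nme3, and Mrps21 has processed pseudogenes, so the values of these 3 are uncertain.

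Among Mrpl genes, Mrpl42 (chr10:95480806-95501927, minus strand) had the highest level of all members in GFP-negative cells, 1243 FPKM, and also the largest negative difference of its subunit, with 722 FPKM in GFP-positive cells (−0.78). Mrpl39, which resembles a tRNA synthetase, was at 39.2 and 22.4 FPKM (−0.78), and Mrpl21 was at 329 and 201 FPKM (−0.70). The largest positive difference was that of Mrpl41 (chr2:24974117-24975098, minus strand), at 120 FPKM in GFP-negative and 229 FPKM in GFP-positive cells (0.93), just inside the 2-fold limit. Mrpl23 was at 77.6 and 128 FPKM (0.72), and Mrpl48 at 111 and 173 FPKM (0.63). Both have processed pseudogenes whose transcripts match theirs closely, at 100% identity over 507 bases for Mrpl23-ps1 and 98.1% over 636 bases for Mrpl48-ps, so reads could have been split between copies and these values are uncertain. The same holds for Mrpl41, Mrpl42 and Mrpl21, with copies of 97.85%, 96.3% and 97.2% identity. Mrpl21 also overlaps Ighmbp2, and Mrpl48 overlaps Rab6a, both on the opposite strand.

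**Figure D1:**
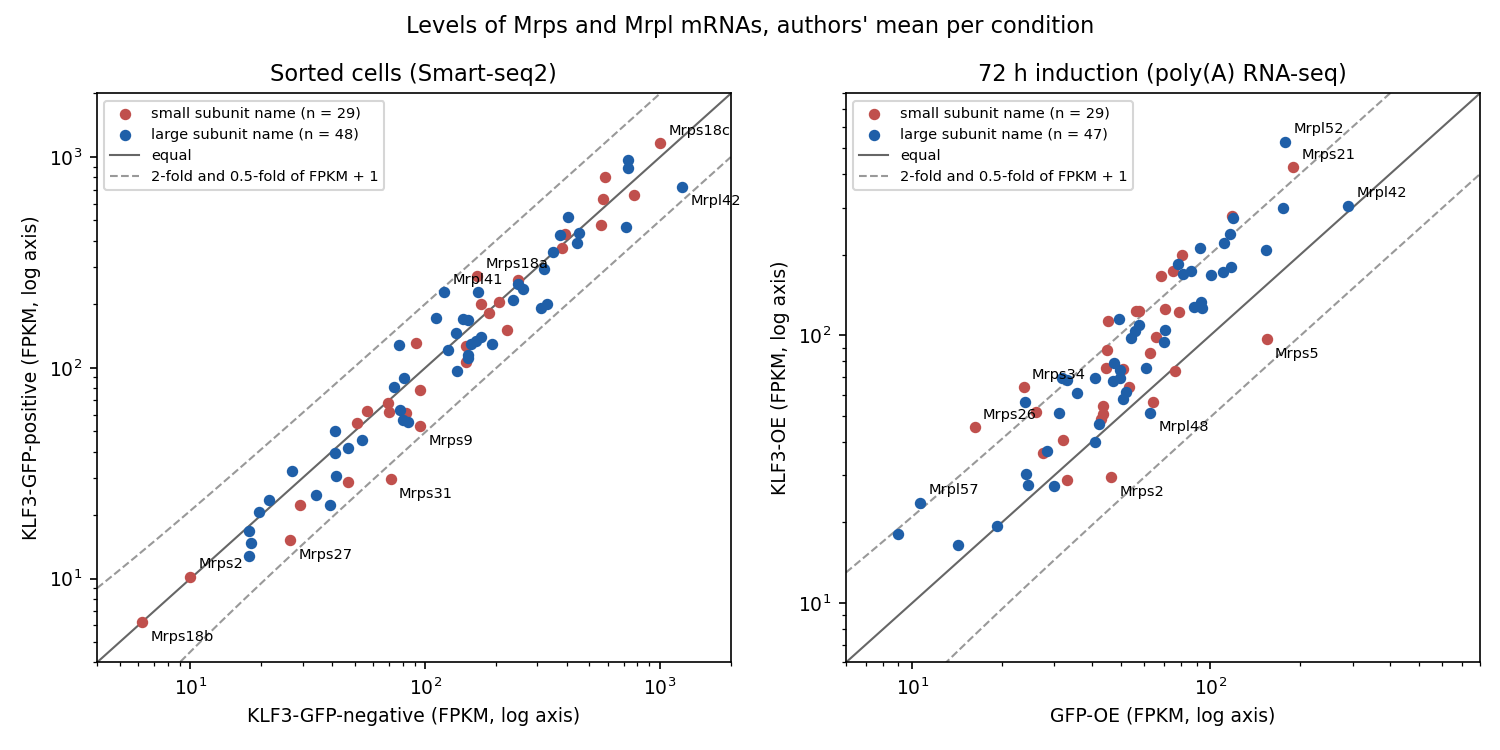
Authors' mean FPKM of each Mrps gene (red) and Mrpl gene (blue) in the control condition (x axis) and the other condition (y axis) of each experiment, on log axes, with equal levels (solid line) and 2-fold and 0.5-fold limits on the FPKM + 1 scale (dashed lines). In sorted cells the points follow the line of equality with Mrps31 alone outside the limits. In KLF3-OE cells 68 of 76 points lie above that line, where 40.5% of all genes compared had a positive difference.

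The levels spanned a wide range in sorted cells. In GFP-negative cells they ran from 6.23 FPKM for Mrps18b to 1243 FPKM for Mrpl42, with medians of 149 FPKM for Mrps and 141 FPKM for Mrpl genes. The 3 highest Mrps genes were Mrps18c (1003 FPKM), Mrps12 (775 FPKM) and Mrps21 (585 FPKM), and the 3 highest Mrpl genes were Mrpl42, Mrpl17 (727 FPKM) and Mrpl33 (727 FPKM). Together the 77 genes made up 1.84% of the summed FPKM in GFP-negative and 1.71% in GFP-positive cells. In GFP-OE cells the levels ran from 8.96 FPKM for Mrpl35 to 289 FPKM for Mrpl42, with medians of 53.6 FPKM for Mrps and 54.3 FPKM for Mrpl genes. Mrpl42 was thus the highest member in the control condition of each experiment, whereas Mrps18b, lowest in the sorted cells, was above the Mrps median in GFP-OE cells, at 62.9 FPKM. Mrps18b has a processed pseudogene of 99.76% identity over 417 bases, so its values are uncertain.

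After induction of KLF3, most mitoribosomal protein mRNAs were higher than in GFP-OE cells, in both subunits. As deposited, the amounts were similar. The median difference was 0.63 over 29 Mrps genes (range −0.66 to 1.43) and 0.64 over 47 Mrpl genes (range −0.28 to 1.57), whereas it was −0.18 over the 11179 genes whose mean reached 1 FPKM. Above 2-fold were 10 of 29 Mrps and 11 of 47 Mrpl genes, 21 of 76 in all (27.6%), beside 6.6% of all genes. Below 0.5-fold were 0 of 76, beside 10.1% of all genes. Members had higher levels than genes as a whole, with medians in GFP-OE cells of 53.9 FPKM and 6.58 FPKM over all listed genes. The part of level in these shares was not tested. Positive differences were seen in 24 of 29 Mrps and 44 of 47 Mrpl genes, and under the other ways of processing between 60 and 74 of the 76 genes were positive. The summed level went from 1792 to 3015 FPKM for Mrps and from 3303 to 5546 FPKM for Mrpl genes, a ratio of 1.68 for each, while the sum over all genes in the table went from 612621 to 834882 FPKM, a ratio of 1.36. As a share of the summed FPKM, the 76 genes went from 0.832% to 1.03%. That similarity depended on the processing, as after removal of the trend with genomic span the medians were 0.67 and 0.38, with 10 Mrps but 2 Mrpl genes above 2-fold.

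The largest difference among all members was that of Mrpl52 (chr14:54426909-54429756, plus strand), at 178 FPKM in GFP-OE and 529 FPKM in KLF3-OE cells (1.57), where it was the highest member. Mrpl54 was at 77.8 and 185 FPKM (1.24), and Mrpl13, the homologue of bacterial ribosomal protein L13, at 49.3 and 115 FPKM (1.21). Mrpl11 and Mrpl12, which belong to the stalk where translation factors dock, were at 23.9 and 56.3 FPKM (1.20) and at 92.2 and 212 FPKM (1.19). The other 6 Mrpl genes above 2-fold were Mrpl34, Mrpl43, Mrpl57, Mrpl20, Mrpl17 and Mrpl46, between 1.02 and 1.19. Just below the limit stood Mrpl23, at 86.4 and 173 FPKM (0.99). Mrpl13, Mrpl43 and Mrpl46 overlap a protein-coding gene on the opposite strand, and Mrpl12 and Mrpl23 have processed pseudogenes, so these values are uncertain.

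Of the Mrps genes, Mrps26 (chr2:130563742-130568695, plus strand) differed most, at 16.2 FPKM in GFP-OE and 45.4 FPKM in KLF3-OE cells (1.43), followed by Mrps34 at 23.7 and 64.0 FPKM (1.40). Mrps12, the homologue of the bacterial S12 protein at the decoding centre, was at 80.4 and 199.5 FPKM (1.30), and Mrps25 at 45.4 and 113 FPKM (1.29). The other 6 Mrps genes above 2-fold were Mrps18c, Mrps16, Mrps35, Mrps21, Mrps18a and Mrps24, between 1.08 and 1.27. Mrps34 lies within Mapk8ip3 on the opposite strand and overlaps Nme3 on its own. Mrps24 overlaps Urgcp on its own strand, and Mrps18a and Mrps25 each overlap a protein-coding gene on the opposite strand. Mrps26, Mrps25, Mrps16, Mrps18c and Mrps21 have processed pseudogenes, so all of these values are uncertain. The 10 Mrps genes included proteins with a bacterial homologue and proteins without one.

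A few members were lower in KLF3-OE than in GFP-OE cells. Mrps5 (chr2:127587222-127606829, plus strand) was at 154 and 97.0 FPKM (−0.66), and Mrps2 (chr2:28468066-28471178, plus strand) at 46.5 and 29.5 FPKM (−0.64). Both are homologues of bacterial small-subunit proteins. The value of Mrps5 is uncertain, since a processed pseudogene matches its transcript at 98.4% identity over 1019 bases. The remaining 6 negative values were small, between −0.28 for Mrpl48, at 62.7 and 51.4 FPKM, and −0.04 for Mrpl39 and Mrps10. Mrps5 and Mrps2 kept a negative value under all 11 other ways of processing, between −0.99 and −0.46 and between −1.05 and −0.27. Mrpl48, Mrps22, Mrps31, Mrpl3 and Mrpl39 turned positive under 3 to 5 of them, so their direction depended on the processing.

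**Figure D2:**
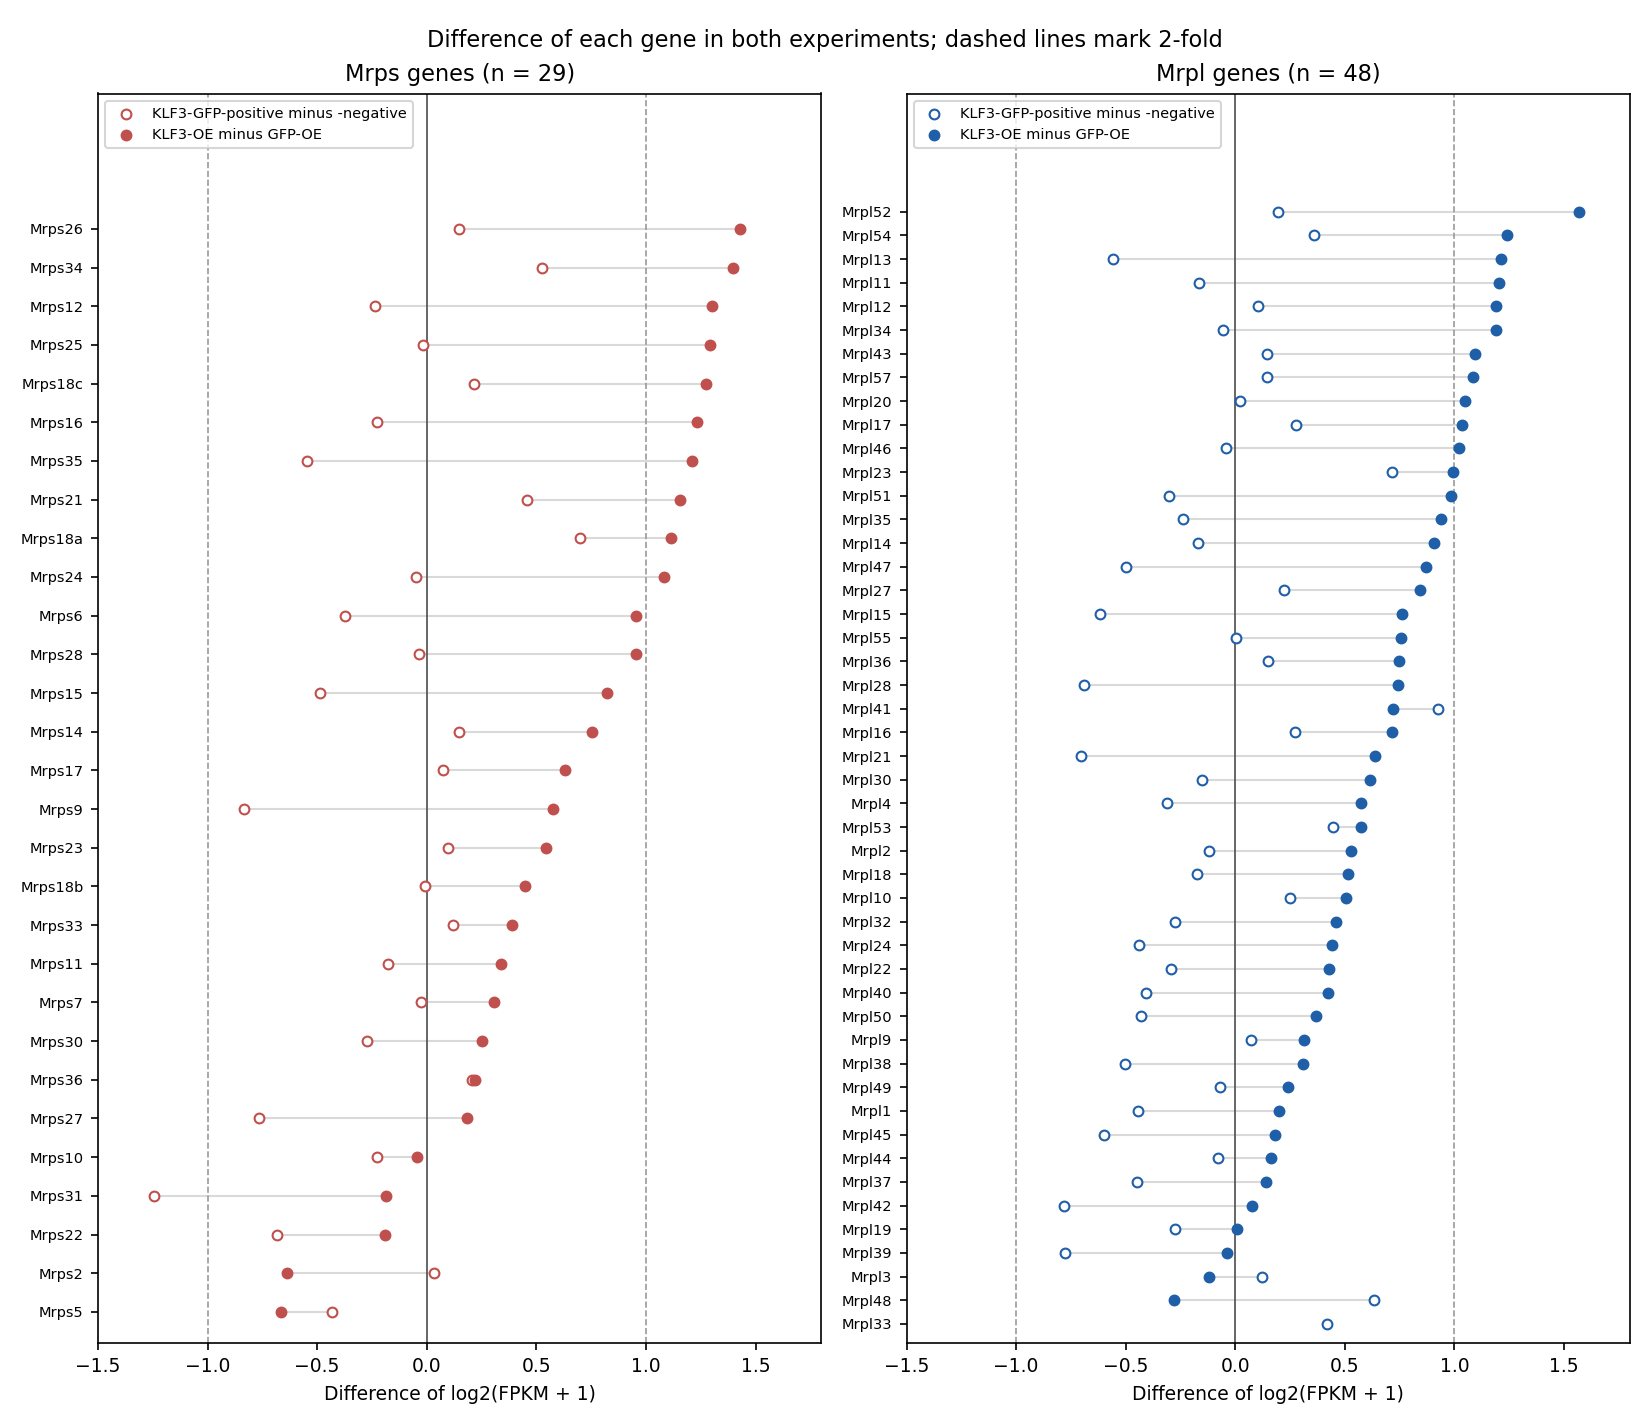
Difference of log2(FPKM + 1) for each Mrps gene (left) and Mrpl gene (right), ordered by the difference between KLF3-OE and GFP-OE cells (filled), with the difference between GFP-positive and GFP-negative cells (open) on the same line; dashed lines mark 2-fold. The filled points run from −0.66 for Mrps5 to 1.57 for Mrpl52, and most open points lie to their left.

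The scaling of the columns set the size of these differences. Genes called higher made up 39.4% of all genes past a limit as deposited, 62.6% after median-ratio scaling, 53.5% after quantile normalization and 18.7% when the columns were brought to the same sum without the cytosolic ribosomal protein genes, and the median over all genes shifted from −0.18 to 0.00, −0.03 and −0.37. Beside those, the median over the 76 members was 0.84, 0.40 and 0.41, with 30, 9 and 8 members above 2-fold (39.5%, 11.8% and 10.5%), where 10.4%, 7.23% and 3.83% of all genes were. With the same sum, 6 of the 8 were Mrps and 2 were Mrpl genes. The Mrps and Mrpl medians kept their positive sign under each scaling. In sorted cells, 62.3% of genes past a limit were higher as deposited, 52.8% after quantile normalization and 53.3% with the same sum, and the Mrps and Mrpl medians stayed negative under each. Of the 21 members above 2-fold in KLF3-OE cells, Mrps25 and Mrps26 stayed above it under all 11 alternatives, and all 21 stayed positive. Mrps25 and Mrps26 both have processed pseudogenes, and Mrps25 overlaps Nr2c2, so their values remain uncertain. Leaving out members with an overlap or copy was not among the 11.

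**Figure D3:**
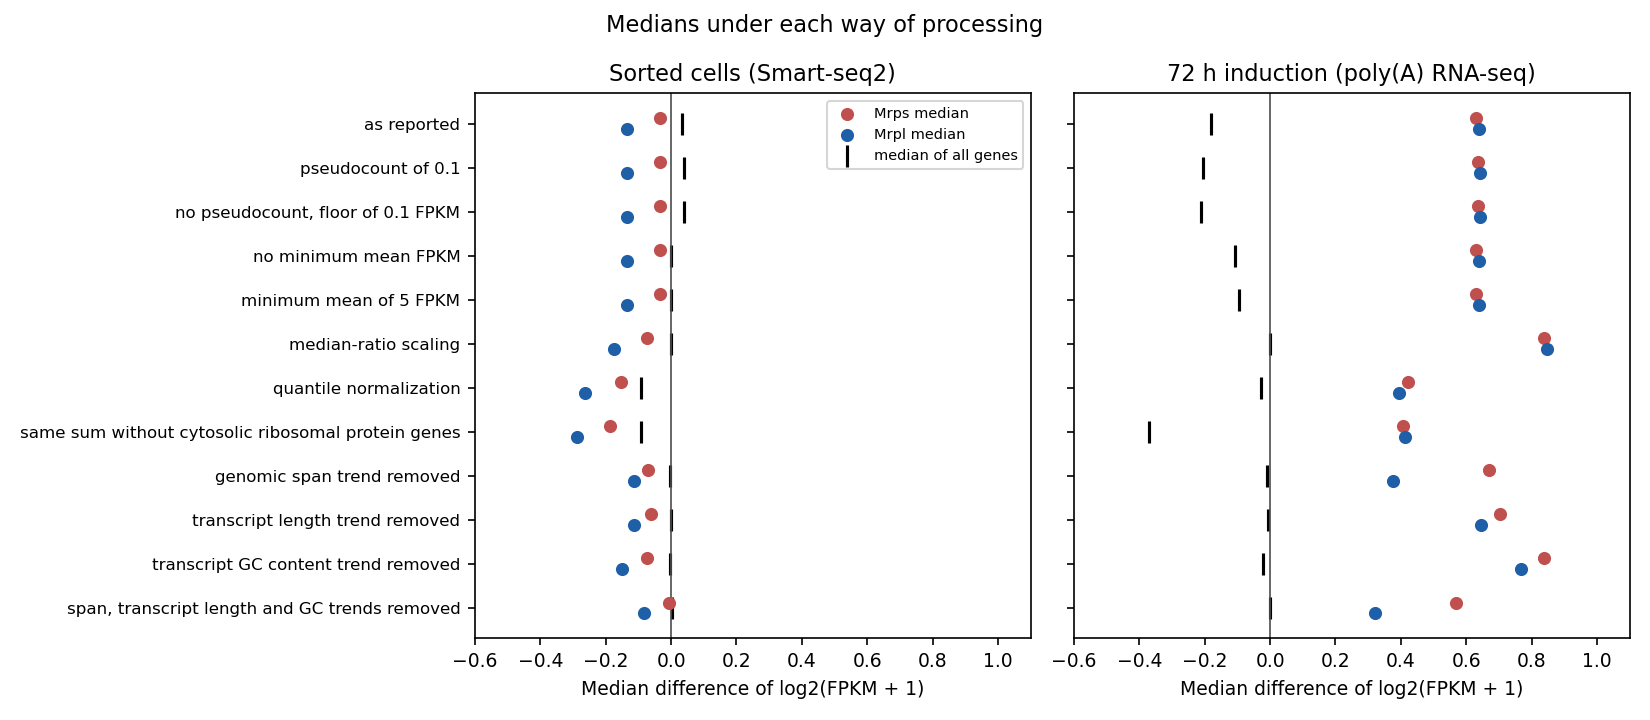
Median difference of log2(FPKM + 1) of Mrps genes (red), Mrpl genes (blue) and all genes compared (black bars) under each way of processing, in sorted cells (left) and in the induction experiment (right). In the induction experiment the member medians stay above the median of all genes, between 0.32 and 0.85.

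Some members have roles that set them apart. Of the 3 stalk genes, Mrpl10 differed less in KLF3-OE cells (47.3 to 67.5 FPKM, 0.51) than Mrpl11 and Mrpl12. In sorted cells the 3 stood at 0.25, −0.17 and 0.10. Mrpl45, which contacts the inner membrane, was at 84.7 and 55.6 FPKM in GFP-negative and GFP-positive cells (−0.60) and at 50.9 and 57.9 FPKM in GFP-OE and KLF3-OE cells (0.18). The 3 paralogues of bacterial S18 differed from each other. Mrps18c was at 68.4 and 167 FPKM (1.27), Mrps18a, whose product sits in the large subunit, at 56.4 and 124 FPKM (1.12), and Mrps18b at 62.9 and 86.2 FPKM (0.45) in GFP-OE and KLF3-OE cells. In sorted cells Mrps18b was at 6.23 and 6.20 FPKM, while Mrps18c was at 1003 and 1165 FPKM. Mrps30, of the large subunit despite its name, was at 53.6 and 64.0 FPKM (0.25), and Mrps36, of the dehydrogenase complex, at 43.6 and 50.9 FPKM (0.22). Counting Mrps18a and Mrps30 with the large subunit and leaving out Mrps36 moved no median by 0.1 or more.

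Members on a list of bacterial homologues and all others were compared within each subunit, without a test. In KLF3-OE cells the medians were 0.79 over 16 conserved Mrps genes (5 above 2-fold) and 0.45 over the other 13 (5 above 2-fold). The list held Mrps18c alone of the S18 paralogues. With all 3 on it, a choice made after seeing the data, the medians were 0.79 over 18 genes (6 above 2-fold) and 0.39 over 11 (4 above 2-fold). For Mrpl genes they were 0.73 over 28 conserved genes (6 above 2-fold) and 0.42 over the other 19 (5 above 2-fold). The ranges overlapped over most of their length, and the highest member of each subunit, Mrpl52 and Mrps26, had no bacterial homologue in the list used. In sorted cells the medians lay between −0.17 and −0.01 for all of these classes.

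Most genes did not keep the sign of their difference between the experiments. Positive differences made up 30 of 77 in sorted and 68 of 76 in KLF3-OE cells. Such unlike shares alone entail many changes of sign. The counts below were not made over all genes, so they do not set the members apart. Higher in both were 26 genes, lower in both 5, lower in GFP-positive and higher in KLF3-OE cells 42, and the reverse 3. With a size of at least 0.5 in each experiment and opposite signs there were 6 genes, all lower in GFP-positive and higher in KLF3-OE cells: Mrpl13, Mrpl15, Mrpl21, Mrpl28, Mrps9 and Mrps35. Mrpl13 was at 192 and 130 FPKM in sorted cells (−0.56) against the 1.21 given above, and Mrps35 at 222 and 152 FPKM (−0.54) against 74.9 and 174.5 FPKM in GFP-OE and KLF3-OE cells (1.21). Across the 76 genes the differences of both experiments had a Pearson r of 0.34 and a Spearman rho of 0.35, as a description of points that share their libraries.

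The wider machinery of mitochondrial gene expression was followed through lists of genes with other names. Of the mitoribosomal proteins that the naming rule leaves out, 6 were listed, and most were higher in KLF3-OE cells as well. In KLF3-OE cells their median was 0.94, and 2 of 6 were above 2-fold, beside 6.6% of all genes. The 2 were Gadd45gip1, of the large subunit, at 35.2 and 80.2 FPKM (1.17), and Chchd1, of the small subunit, at 148 and 315 FPKM (1.09). Dap3, a GTP-binding small-subunit protein, was at 140 and 258 FPKM (0.87), and Ict1, the peptidyl-tRNA hydrolase also named Mrpl58, at 78.2 and 147 FPKM (0.90). Ptcd3, a pentatricopeptide repeat protein of the small subunit, was lower, at 28.7 and 19.5 FPKM (−0.54). In sorted cells all 6 were negative, between −0.99 for Ptcd3, at 5.43 and 2.23 FPKM, and −0.06 for Dap3.

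Factors that build or use the mitoribosome had medians nearer to 0 in KLF3-OE cells. They are also longer genes. Median spans were 12958 bases for assembly, 19052 for translation factors, 30052 for tRNA synthetases and 10513 for replication and transcription, beside 7400 for members. Over all genes, medians were −0.01 at 7409 to 15850 bases, −0.22 at 15851 to 29250 bases and −0.44 at 29263 to 60495 bases. The part of gene length in these medians was not tested. The shares past a limit are given beside 6.6% of all genes above 2-fold and 10.1% below 0.5-fold. Of 25 assembly and rRNA modification genes (median 0.14), 2 were above 2-fold (8.0%), and 0 were below 0.5-fold. The 2 were the helicase Dhx30 (42.8 to 107 FPKM, 1.31) and the ribosome-binding factor Rbfa (33.2 to 70.2 FPKM, 1.06). Of 19 translation factors and regulators (median −0.22), 1 was above 2-fold (5.26%), Slirp (56.2 to 182 FPKM, 1.67), an RNA-binding partner of Lrpprc. Of the same 19, 2 were below 0.5-fold (10.5%), the initiation factor Mtif3 (9.11 to 1.95 FPKM, −1.78) and the elongation factor Gfm1 (47.9 to 23.3 FPKM, −1.01). None of 16 mitochondrial tRNA synthetases passed either limit (median −0.13). Of 12 genes for replication and transcription of mitochondrial DNA (median −0.11), 1 was above 2-fold (8.33%), the mitochondrial RNA polymerase Polrmt (21.6 to 49.7 FPKM, 1.16). Tfam, which packages mitochondrial DNA, was at 79.2 and 51.8 FPKM (−0.60).

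In sorted cells, the medians of these lists were −0.20 for assembly (25 genes), −0.14 for translation factors (20 genes), −0.12 for tRNA synthetases (15 genes) and −0.47 for replication and transcription (12 genes). Rbfa was below 0.5-fold (42.5 to 19.9 FPKM, −1.06), opposite to its value in KLF3-OE cells, and the DNA polymerase Polg was above 2-fold (5.58 to 14.1 FPKM, 1.20). No other gene of these 4 lists passed a limit there, where 13.8% of all genes were above 2-fold and 8.32% below 0.5-fold. Of 9 nuclear regulators of mitochondrial genes, 1 was above and 1 below a limit in sorted cells (11.1% each), and 5 were positive. In KLF3-OE cells 1 of 8 was above and 1 below (12.5% each), beside 6.6% and 10.1% of all genes, and 3 were positive. Myc was at 8.47 and 1.62 FPKM in sorted cells (−1.85) and at 4.54 and 16.9 FPKM in GFP-OE and KLF3-OE cells (1.69). Its paralogue Mycn went the other way in both, at 12.76 and 22.15 FPKM (0.75) and at 41.25 and 27.62 FPKM (−0.56). Yy1 stood at 0.69 and −0.30. Esrra was above 2-fold in sorted cells (2.01 to 5.76 FPKM, 1.17), and Gabpa, the DNA-binding subunit of the ETS factor GABP, was below 0.5-fold in KLF3-OE cells (28.3 to 8.95 FPKM, −1.56). Nrf1 stood at 15.8 and 14.5 FPKM and at 34.6 and 35.4 FPKM, differences of −0.12 and 0.03.

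Cytosolic ribosomal protein and respiratory chain genes, the groups nearest to the members in function, were set beside them. In KLF3-OE cells the median was 0.84 over 86 cytosolic ribosomal protein genes (24 above 2-fold) and 0.75 over 93 respiratory chain and ATP synthase genes (31 above 2-fold, 1 below 0.5-fold). In sorted cells it was −0.23 over 86 (0 above, 3 below) and 0.06 over 94 (1 above, 5 below). Of all genes in sorted cells, 13.8% were above and 8.32% below. The 27.6% of members above 2-fold in KLF3-OE cells stood beside 27.9% and 33.3% in these groups and 6.6% of all genes. A difference between the groups was not tested.

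**Figure D4:**
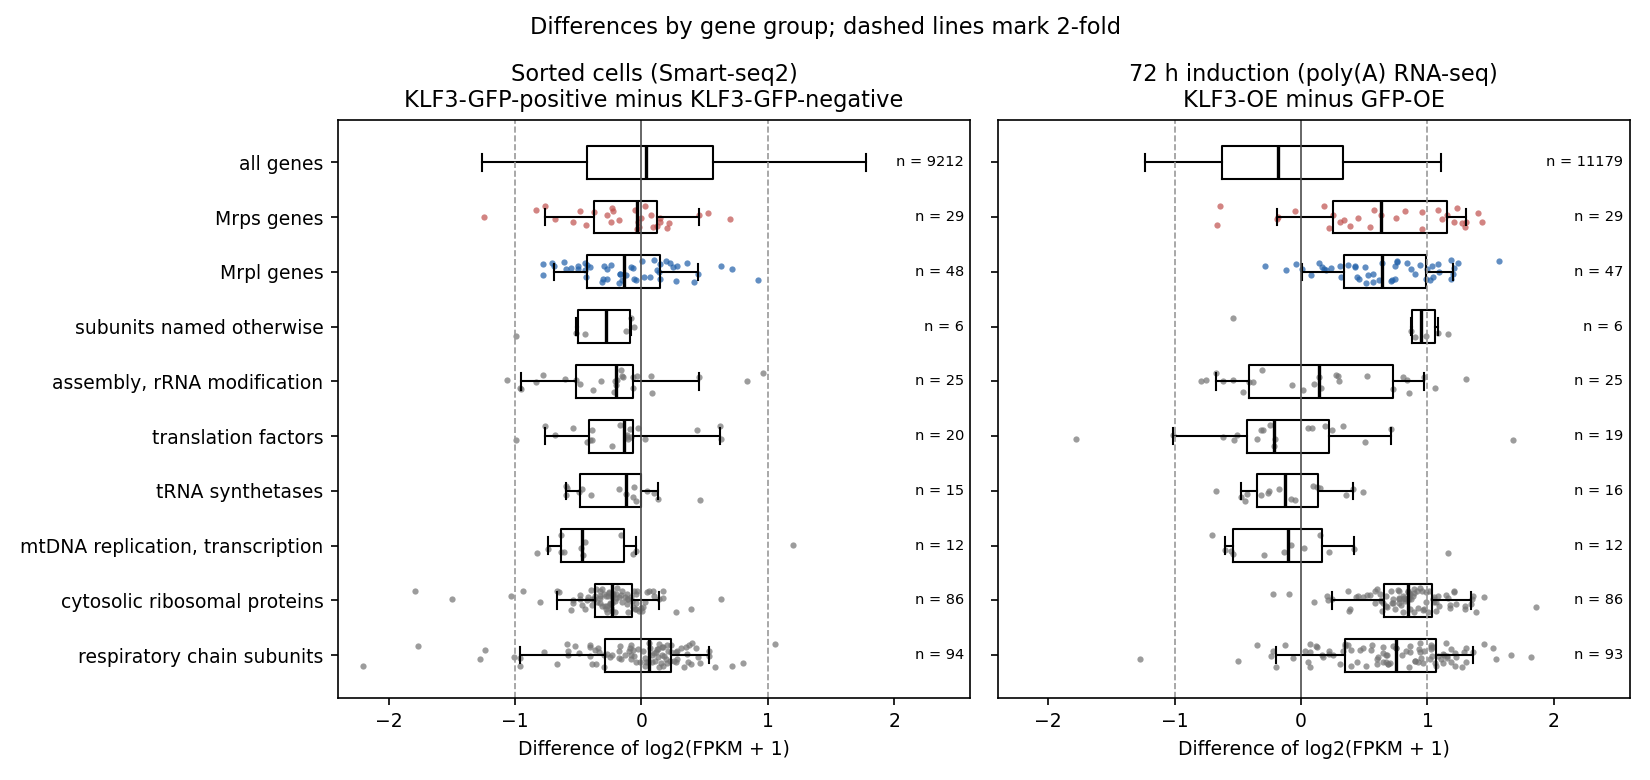
Difference of log2(FPKM + 1) for each gene (points) of each group, with boxes from the lower to the upper quartile, the median (bold line) and whiskers from percentile 5 to percentile 95, in sorted cells (left) and in the induction experiment (right). In the induction experiment Mrps, Mrpl, cytosolic ribosomal protein and respiratory chain genes have medians between 0.63 and 0.84, and the lists of mitochondrial translation factors and tRNA synthetases have medians below 0. The last 2 lists hold longer genes, with median spans of 19052 and 30052 bases.

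Members are short genes, and short genes as a whole were higher in KLF3-OE cells. The median genomic span was 8887 bases for Mrps and 6324 bases for Mrpl genes analysed there, against 21338 bases for all genes, and 38 of 76 members fell in the shortest of 5 equal groups of genes (up to 7407 bases). In that group, all 2236 genes had a median of 0.35 with 16.4% above 2-fold, and the 38 members had a median of 0.74 with 14 above 2-fold (36.8%). In the next group (7409 to 15850 bases), 24 members had a median of 0.56 beside −0.01 over all genes. Of these 24, 4 were above 2-fold (16.7%), beside 7.11% of all genes in that group. In the third group by length (15851 to 29250 bases), 8 members had a median of 0.02 beside −0.22. Of these 8, 3 were above 2-fold (37.5%), beside 4.03% of all genes in that group. The 2 longest groups held 3 members each, with medians of 0.57 and 0.18 beside −0.44 and −0.49, and 0 of them above 2-fold. After the trend with genomic span was removed, the median over the 76 members was 0.45, with 12 above 2-fold (15.8%) beside 7.10% of all genes. By subunit these were 10 of 29 Mrps (34.5%) and 2 of 47 Mrpl genes (4.26%), so the Mrpl share was below that of all genes. After trends with transcript length and GC content were removed as well, it was 0.38, with 10 above 2-fold (13.2%) beside 6.10%. In that last setting, chosen after seeing the data, 7 Mrps genes were above 2-fold (24.1%, median 0.57) and 3 Mrpl genes (6.38%, median 0.32), the latter a share near that of all genes. The part of gene length in the result was not tested. In sorted cells the trend with span was slight, with medians over all genes between −0.03 and 0.12 in the 5 length groups.

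**Figure D5:**
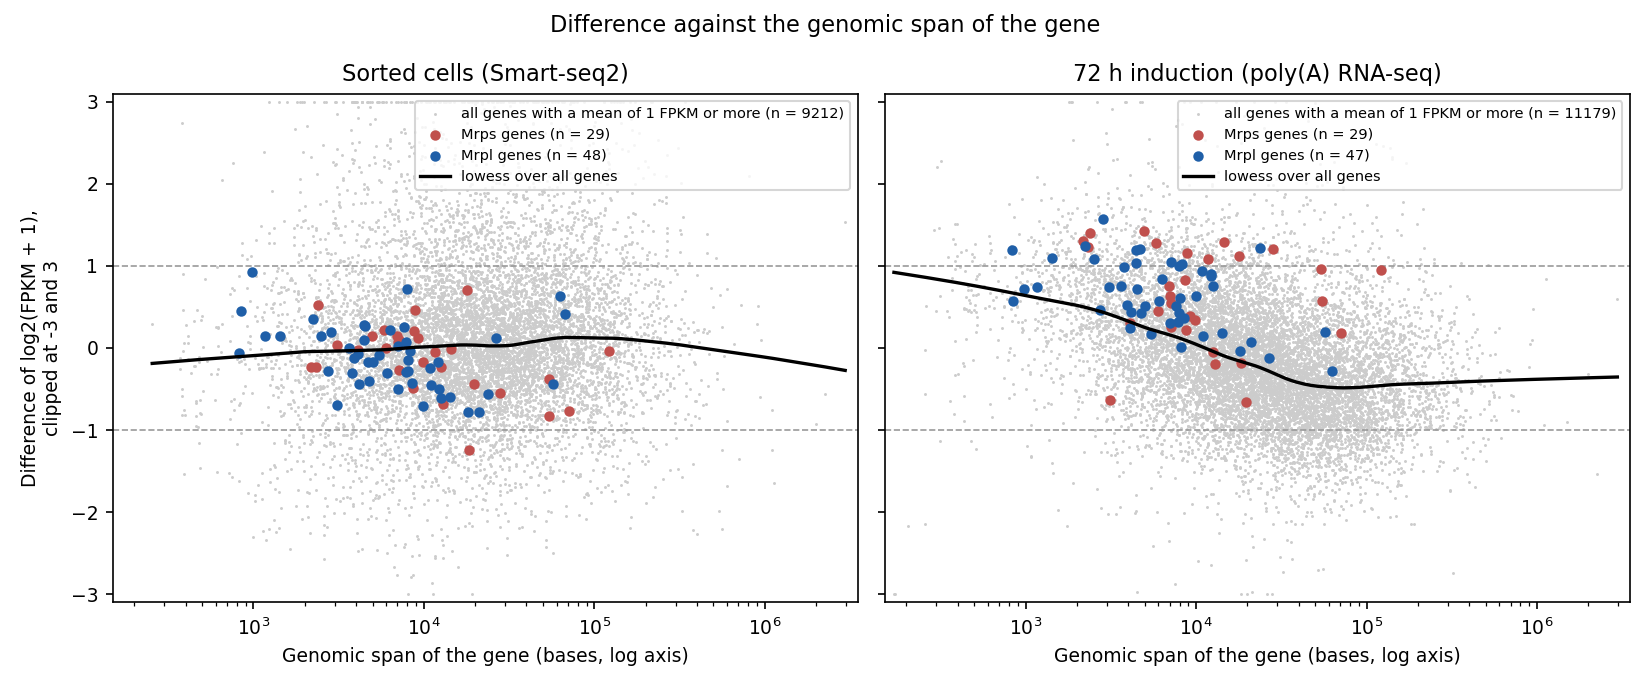
Difference of log2(FPKM + 1) against the genomic span of each gene (bases, log axis) for all genes whose mean reached 1 FPKM (grey), Mrps genes (red) and Mrpl genes (blue), with a lowess curve over all genes (black). In the induction experiment the curve falls from short to long genes, and 14 of the 38 members up to 7407 bases lie above the 2-fold line.

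Promoters of members were read to see which sequence features they share. RefSeq windows on GRCm38.p6, the assembly also called mm10, from 250 bases before to 50 bases after the start, were found for 68 of 77 members. No window was found for Mrpl13, Mrpl15, Mrpl19, Mrpl38, Mrpl4, Mrpl54, Mrps28, Mrps34 and Mrps35. Motifs were searched on both strands: CCGGAAG, the core of sites for ETS factors such as GABPA, GCGCANGCG for NRF1, AAGATGG for YY1 and CCACNCCC for the KLF family. For members, the window nearest to the annotated 5′ end was taken. For all genes, the first window listed for each gene was taken, 27025 in all, without a limit to expressed genes. The 2 sets were thus not chosen alike. The ETS core was in 24 of 68 member windows (35.3%) and in 9.12% of those 27025 windows. NRF1 letters were in 16 of 68 (23.5%) and in 6.47% of all, YY1 letters in 13 (19.1%) and 6.48%, and the KLF box in 16 (23.5%) and 17.6%. In 20 windows none of the 4 motifs was found. Among members with a window, the ETS core was in 11 of 17 above 2-fold in KLF3-OE cells and in 12 of the other 50, a description with no test. The KLF box was in 3 of the 17 and in 12 of the 50. A match of letters is a description, and a window without one says only that these letters were not in it.

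The 120 bases before the RefSeq start are given for the highest Mrpl and Mrps genes of the KLF3-OE comparison, for 2 more genes above 2-fold whose stretch shows an NRF1 or KLF match, for the lowest 2 of that comparison, and for the extremes of the sorted cells. Each reads 5′ to 3′ on the strand of the gene, in lower case with motif matches in capitals. The stretch of Mrpl52 (chr14:54426789-54426908, plus strand) holds an ETS core and YY1 letters, and that of Mrps26 (chr2:130563637-130563756, plus strand) an ETS core next to the start. That of Mrpl12 (chr11:120484517-120484636, plus strand) holds an NRF1 match and that of Mrps24 (chr11:5707702-5707821, minus strand) the KLF box at 2 places. No match lies in the stretches of Mrps5 (chr2:127587306-127587425, plus strand), Mrps2 (chr2:28467946-28468065, plus strand), Mrps31 (chr8:22411220-22411339, plus strand) and Mrpl41 (chr2:24975099-24975218, minus strand).
Mrpl52: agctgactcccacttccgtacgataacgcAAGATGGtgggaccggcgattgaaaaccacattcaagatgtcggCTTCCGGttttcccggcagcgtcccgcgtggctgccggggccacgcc
Mrps26: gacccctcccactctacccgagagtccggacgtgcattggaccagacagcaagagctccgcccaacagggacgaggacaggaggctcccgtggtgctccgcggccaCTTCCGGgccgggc
Mrpl12: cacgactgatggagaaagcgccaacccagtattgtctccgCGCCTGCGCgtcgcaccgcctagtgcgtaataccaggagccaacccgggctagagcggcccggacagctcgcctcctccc
Mrps24: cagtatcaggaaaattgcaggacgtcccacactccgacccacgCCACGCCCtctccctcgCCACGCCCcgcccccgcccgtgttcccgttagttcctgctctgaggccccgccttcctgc
Mrps5: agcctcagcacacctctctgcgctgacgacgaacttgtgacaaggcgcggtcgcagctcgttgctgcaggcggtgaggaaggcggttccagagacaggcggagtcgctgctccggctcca
Mrps2: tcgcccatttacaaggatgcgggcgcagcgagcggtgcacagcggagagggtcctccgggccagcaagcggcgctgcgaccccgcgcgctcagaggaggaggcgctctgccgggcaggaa
Mrps31: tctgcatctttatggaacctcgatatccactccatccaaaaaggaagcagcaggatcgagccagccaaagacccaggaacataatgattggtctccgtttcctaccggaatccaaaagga
Mrpl41: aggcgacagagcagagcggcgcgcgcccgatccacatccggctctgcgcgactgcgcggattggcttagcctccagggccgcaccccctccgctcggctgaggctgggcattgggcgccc

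Members also share a gene arrangement. In GENCODE M21, 33 of 77 (42.9%) had a protein-coding gene on the opposite strand whose start lay within 1000 bases of their own, beside 10.8% of all 21951 protein-coding genes. The latter were taken without a limit to expressed genes, and the share was not computed for other gene groups. Values in KLF3-OE cells were had for 31 of these members and their partners, and the median was 0.61 over the members and 0.08 over their partners. Mrpl46 and Mrps11, which are paired with each other, entered both medians and were counted once in each direction. Of the partners 3 were above 2-fold (Ndufs6, Fau and the member Mrpl46) and 2 below 0.5-fold, where 6.6% and 10.1% of all genes were. Counted in this way, the member had the higher difference in 25 of 31 cases. Mrpl13 (1.21) is paired with Mtbp, which was at 43.5 FPKM in GFP-OE and 20.6 FPKM in KLF3-OE cells (−1.05). Mrps5 (−0.66) is paired with Zfp661, at 3.53 and 1.25 FPKM (−1.01). Of partners with a ribosomal or mitochondrial role, picked after their values were seen, some were higher too. Ndufs6, a complex I subunit beside Mrpl36, was at 219 and 500 FPKM (1.19), and Ndufb5, beside Mrpl47, at 182 and 353 FPKM (0.95). Fau, which encodes a cytosolic ribosomal protein and lies 59 bases from Mrpl49, was at 1342 and 3083 FPKM (1.20), while Mrpl49 itself was at 52.0 and 61.6 FPKM (0.24). In contrast, the mitochondrial seryl-tRNA synthetase Sars2, beside Mrps12, was at 16.5 and 18.1 FPKM (0.13), and Twnk, the mitochondrial DNA helicase beside Mrpl43, at 15.3 and 13.8 FPKM (−0.13). Mrpl46 and Mrps11 are each other's partners, at 1.02 and 0.34.

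Overlap and copies limit some of these values. Of the 77 members, 26 overlap another protein-coding gene, 23 of them on the opposite strand, and the sources used here do not state whether reads were counted by strand, so reads in the shared bases could not be assigned with certainty. A processed pseudogene with at least 200 aligned bases at 90% identity or more was found for 24 members. The 33 members with neither had medians of −0.17 in sorted cells and 0.63 in KLF3-OE cells, beside −0.08 and 0.63 over all members, but the subunits differed. In KLF3-OE cells, 2 of the 11 Mrps genes (median 0.57) and 7 of the 22 Mrpl genes (median 0.73) with neither were above 2-fold, beside 10 of 29 and 11 of 47 in all. Of the 21 members above 2-fold in KLF3-OE cells, 9 had neither, 7 overlapped a protein-coding gene and 6 had a copy.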

How the data were processed

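Gene expression was taken from 2 deposited tables of FPKM, 1 for sorted cells (Smart-seq2) and 1 for overexpressing cells (poly(A) RNA-seq), each with 1 column per condition. According to their methods and the labels, the authors aligned reads to mm10 with STAR (2.6.0 in the processing notes, another version in the methods) with the GENCODE annotation and computed FPKM with Cufflinks 2.2.1. The deposited FPKM values are averages of 2 samples, given to 2 decimals and never under 0.1, and they cover protein-coding genes. Their calls, made with DESeq2 on counts, were not used here. Samples were grouped by their labels. With averages, no spread between replicates, interval or test could be had, and the planned limma fit, leave-one-out fits and replicate block were not run. The read depth is unknown, so the precision of each value is unknown too.

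Genes listed at several loci were kept at the locus with the highest mean. Differences of log2(FPKM + 1) were computed for genes whose mean over both columns reached 1 FPKM, and genes were counted above 2-fold or below 0.5-fold, the fold limits of the study without its limit on P. Members, gene lists and limits were chosen with earlier results of these data known. The genes named are, in each table and subunit, the 3 highest and 3 lowest differences and the 3 highest control levels, every member past a limit, members with opposite differences of at least 0.5 in both tables, and members fixed for their role (42 of 77 in all), with others named after their values were seen as just outside a limit or beside a partner gene. Alternatives were a pseudocount of 0.1, a floor of 0.1 FPKM, no minimum, a minimum of 5 FPKM, median-ratio scaling, quantile normalization, the same sum without cytosolic ribosomal protein genes, removal of a lowess trend (fraction 0.3, statsmodels 0.14.6) with genomic span, and subunits by location of the protein. Removal of trends with transcript length, with GC content, and with all of these, restriction to members without overlap or copy, and the regrouping of S18 paralogues were chosen after seeing the data. The difference step was tested on simulated data, as reported and with median-ratio scaling, quantile normalization and removal of the span trend. The changes put into those data were well past the fold limits, so the recovery of smaller ones was not tested. The other settings, and the steps for overlaps, copies, partners and promoters, were not tested in this way. Coordinates are those of the tables, 1-based, in mm10. Overlaps and transcripts came from GENCODE M21, on the same assembly, which held 99.8% of the identifiers, and copies were found with blastn 2.17.0. Python 3.11.15, pandas 2.3.3, numpy 2.4.6 and matplotlib 3.10.9 were used.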

Additional observations from a re-analysis of the deposited data

How the results depend on the processing

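The direction of the Mrps and Mrpl medians was the same under every alternative run, in both experiments. In sorted cells the Mrps and Mrpl medians moved from −0.03 and −0.14 to −0.15 and −0.26 after quantile normalization and to −0.19 and −0.29 with the same sum without cytosolic ribosomal protein genes, and 1 Mrpl gene, Mrpl41, passed 2-fold (count 1 in place of 0) after removal of the span trend (1.02) and of all 3 trends (1.04). In KLF3-OE against GFP-OE cells, from 0.63 with 10 Mrps genes and 0.64 with 11 Mrpl genes above 2-fold, median-ratio scaling gave medians of 0.84 and 0.85 with 17 Mrpl genes above 2-fold, quantile normalization 0.42 with 4 Mrps genes and 0.40 with 5 Mrpl genes, and the same sum without cytosolic ribosomal protein genes 0.41 with 6 Mrps genes and 0.41 with 2 Mrpl genes. Removal of the span trend gave an Mrpl median of 0.38 with 2 genes above 2-fold and put 1 Mrps gene below 0.5-fold (Mrps2, −1.05). Removal of the GC trend gave 0.84 and 0.77 with 17 Mrpl genes above 2-fold, and removal of all 3 trends an Mrpl median of 0.32 with 3 genes above 2-fold. Among members with neither a protein-coding overlap nor a copy, chosen after seeing the data, the sorted Mrps median was −0.49, and 2 Mrps and 7 Mrpl genes were above 2-fold in KLF3-OE cells, out of fewer genes. The cause of these shifts was not tested. The other 136 values for the subunits and their homologue classes moved by less than 0.1 in a median or 1.5 times in a count. Of 83 differences of named genes, 21 changed sign under at least 1 alternative, none of them past a limit as reported. No paired analysis was possible because each table holds 1 average per condition, so the replicate block and leaving out each sample could not be run. With averages of unknown depth, a difference near 0 cannot be told from sampling noise.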

Other observations

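The mRNAs that the mitoribosome translates, encoded in mitochondrial DNA, were looked up after the values of the members had been seen. In sorted cells 7 were listed, and all 7 were higher in KLF3-GFP-positive cells, from mt-Cytb at 670 and 851 FPKM (a difference of log2(FPKM + 1) of 0.35) to mt-Nd4 at 568 and 1091 FPKM (0.94), while the Mrps and Mrpl medians were slightly negative. Their sum went from 5181 to 8457 FPKM. In overexpressing cells 13 were listed, 6 with positive and 7 with negative differences. mt-Nd3 was at 43.6 and 95.04 FPKM (1.11) and mt-Nd5 at 1435 and 2903 FPKM (1.02) in GFP-OE and KLF3-OE cells, whereas mt-Co1, a core subunit of cytochrome c oxidase, was at 6265 and 1600 FPKM (−1.97) and mt-Atp8 at 459.0 and 101 FPKM (−2.17). Their sum went from 23124 to 17091 FPKM, and the sum of the 76 Mrps and Mrpl genes from 5094 to 8561 FPKM. Several of these mRNAs lie next to each other or overlap on the mitochondrial genome, and fragments of mitochondrial DNA also lie in nuclear chromosomes, so reads may have been assigned unevenly. No spread between samples is known for any of these values, and no difference was tested.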
